A study of Mus musculus with 12 samples.

Results

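The genes described here are the kynurenine pathway enzymes of the mouse small intestinal epithelium, with Ccbl1 at their centre. The list held 7 genes: Ido1, Afmid, Kmo, Ccbl1, Ccbl2, Got2 and Aadat. Ccbl1 was chosen by its measured difference between the surgery groups compared below, and the other 6 were chosen by their function, as enzymes that break down tryptophan or transaminate kynurenine. Of the 7 genes, 6 had a row among the 15855 genes of the count table, and Aadat had no row in the table analysed here. The symbols are those of the table: Ccbl1 is the gene now called Kyat1, and Ccbl2 the gene now called Kyat3.

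RNA was sequenced from live EpCAM+ cells sorted from the whole small intestine of C57BL6/J mice 24 h after surgery. EpCAM is an adhesion molecule by which epithelium is told from other cells. Per the methods of the study, mice were male and 8 to 12 weeks old. In the pMCAO group (n = 5), a filament was advanced to block the middle cerebral artery permanently, a model of ischaemic stroke without reperfusion. The sham group (n = 7) had the same operation without the occlusion, so both groups had been anaesthetised and operated on. The labels call the samples biological replicates and name no genetic change in either group. All 6 markers of epithelium were present, with summed levels of 3386 to 6071 CPM in sham (CPM, counts scaled to the size of each library) and 3466 to 6999 CPM in pMCAO. Of 6 markers of stroma, muscle and endothelium, 4 (Col1a1, Col3a1, Pdgfra and Acta2) had no row in the table. Vim and Pecam1 had rows, with summed levels of 2.31 to 13.7 CPM in sham and 4.44 to 13.4 CPM in pMCAO. Markers of T cells of the epithelium were also present (28.7 to 608.4 CPM in sham and 56.9 to 404.6 CPM in pMCAO). So were those of macrophages and dendritic cells (29.9 to 161.2 and 23.6 to 199.1 CPM).

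The kynurenine pathway is the main route of tryptophan breakdown. Indoleamine 2,3-dioxygenase (Ido1) or tryptophan dioxygenase (Tdo2) opens the ring of tryptophan, and kynurenine formamidase (Afmid) then releases kynurenine. From there the pathway branches. Kynurenine 3-monooxygenase (Kmo) leads towards quinolinic acid and NAD, whereas the kynurenine aminotransferases (Ccbl1, Ccbl2, Aadat and Got2) convert kynurenine to kynurenic acid, a ligand of the receptors Gpr35 and Ahr. The aminotransferases need pyridoxal phosphate, and each has other substrates: Ccbl1 and Ccbl2 also act as glutamine transaminases and cysteine conjugate beta-lyases, and Got2 is the mitochondrial aspartate aminotransferase of the malate-aspartate shuttle.

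Library totals ranged from 7418730 to 31925579 counts, and mitochondrial ribosomal RNA took 14.6% to 54.5% of them. The libraries carry numbers in their titles, and those numbered 58 to 61 stood apart from those numbered 62 to 72 across the table. These 4 early libraries were sham replicates 1, 2 and 3 and pMCAO replicate 1. With surgery group in the model, 2757 of 14462 tested genes (19.1%) differed between the early and the 8 later libraries at an adjusted p of at most 0.05 in limma-voom. The early libraries had less of the markers of goblet cells (summed 3219 to 5783 CPM against 15886 to 39738 CPM), enteroendocrine cells (160.5 to 273.5 against 1093 to 2140 CPM) and tuft cells (8.71 to 35.2 against 132 to 642 CPM). Median log2 differences, early over later, were also negative for stem and crypt (-3.09), Paneth (-2.18) and proliferating (-1.58) markers, with overlapping summed ranges. They were positive for epithelium (0.65), enterocyte (0.27) and erythroid (2.72) markers. For the members, each comparison of the surgery groups is therefore given over all libraries, with runs of library numbers in the model, and without the early libraries. In bulk RNA, fewer cells of a type and less RNA per cell cannot be told apart.

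Between pMCAO and sham, no gene of 14462 passed an adjusted p of 0.05 in limma-voom (0%), 1219 (8.43%) had an unadjusted p under 0.05, edgeR called 0 and DESeq2 called 71. The members were read against these shares. Of the 5 members in the table other than Ccbl1, 4 passed the filter on low counts, and 0 of these 4 were called by limma-voom, edgeR or DESeq2. At an unadjusted p under 0.05 the number was also 0 of 4. With runs of library numbers in the model, 69 genes (0.477%) were called, again with 0 of the 4 members. In that fit 12.7% of all genes had an unadjusted p under 0.05, and Ccbl2 was at 0.0269. Ccbl2 did not pass the filter in the sham libraries alone, so it entered the fits through its pMCAO counts. Nothing is read from its p in any fit of the surgery groups, and its place among the 4 members is no test.

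**Figure D1:**
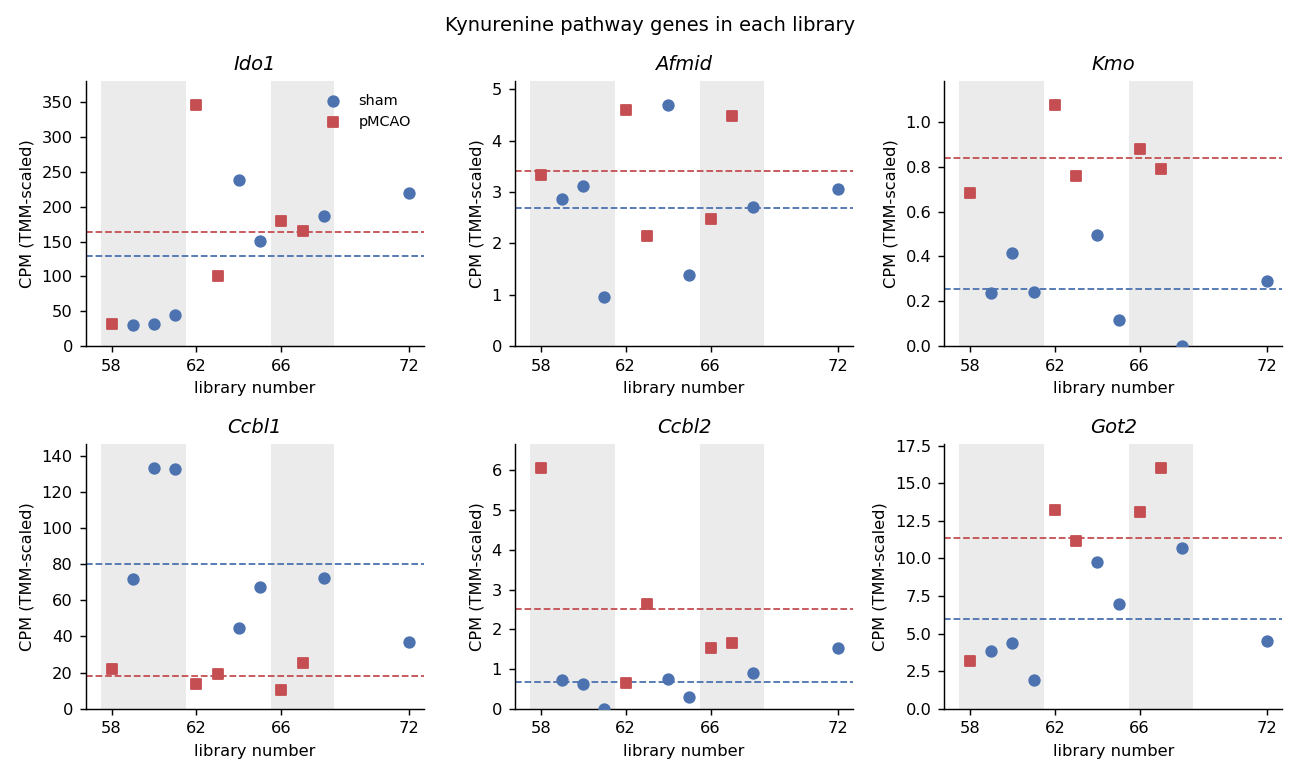
Level of each of the 6 genes (CPM, scaled by TMM, linear axis) against library number, with sham as blue circles, pMCAO as red squares and dashed lines at the group means; grey bands mark alternate runs of library numbers. All 5 pMCAO libraries lie below all 7 sham libraries for Ccbl1 and above them for Kmo, whereas Ido1 is at 30.3 to 43.9 CPM in libraries 58 to 61 of both groups and at 100.4 CPM or more in the rest.

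Ido1, the first enzyme of the pathway in most tissues outside the liver, was the most abundant of the 6 genes per length of transcript in the later libraries. It lies on the minus strand of chromosome 8 (GRCm38, chr8:24584136-24597009). In sham replicates 1 to 7 it was at 30.3, 31.1, 43.9, 238.8, 150.6, 186.6 and 220.0 CPM. In pMCAO replicates 1 to 5 it was at 31.3, 345.9, 100.4, 180.0 and 164.5 CPM. The groups overlapped, with pMCAO replicate 2 above every sham library, and the low values of both groups were those of the early libraries. The log2 fold change of pMCAO over sham was 0.36 (SE 0.63, adjusted p = 0.894, limma-voom, 95% interval -0.98 to 1.70). It turned to -0.06 (SE 0.28) with runs of library numbers and to -0.12 (SE 0.30) without the early libraries, so no direction can be given.

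The difference between early and later libraries was the clearest one for Ido1. Its mean was 34.2 ± 6.52 CPM (SD, n = 4) in the early libraries and 198.3 ± 73.1 CPM (SD, n = 8) in the later ones. The log2 difference, early over later, was -2.53 (SE 0.33, adjusted p = 0.000136, limma-voom with group as covariate). All 4 early libraries lay below all 8 later ones, which was so for 9.4% of all genes. The summed markers of goblet, enteroendocrine and tuft cells moved the same way, as did the medians of stem and crypt, Paneth and proliferating markers given above. Markers of epithelium (median log2 difference 0.65, early over later) and of enterocytes (0.27) went the other way. Markers of T cells of the epithelium ranged from 28.7 to 118.6 CPM in the early and from 99.9 to 608.4 CPM in the later libraries, and those of macrophages and dendritic cells from 29.9 to 145.1 and from 23.6 to 199.1 CPM. Their part in the Ido1 difference was not tested.

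Afmid, which hydrolyses N-formylkynurenine to kynurenine, was low in both groups. It lies on the plus strand of chromosome 11 (chr11:117825924-117839908). Sham replicates 1 to 7 had 2.87, 3.11, 0.965, 4.69, 1.39, 2.72 and 3.06 CPM. The pMCAO replicates 1 to 5 had 3.33, 4.60, 2.14, 2.48 and 4.49 CPM. Every pMCAO value lay inside the sham range. The log2 fold change was 0.40 (SE 0.39, adjusted p = 0.791, 95% interval -0.43 to 1.23), 0.49 (SE 0.45) with runs and 0.39 (SE 0.46) without the early libraries. That of early over later libraries was -0.06 (SE 0.55, adjusted p = 0.948). Of the 50-base words in Afmid transcripts, 41.3% also occur in transcripts of other genes, and the annotated gene Gm20708 covers 1566 bases of its exons on the same strand. Counts of Afmid are therefore uncertain.

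Kmo, the enzyme that takes kynurenine away from kynurenic acid and towards NAD, was close to the limit of detection. It lies on the plus strand of chromosome 1 (chr1:175620381-175662116). Sham replicates 1 to 7 had 3, 2, 1, 4, 2, 0 and 4 counts, or 0.239, 0.415, 0.241, 0.494, 0.116, 0 and 0.291 CPM. The pMCAO replicates 1 to 5 had 8, 46, 33, 11 and 21 counts, or 0.684, 1.08, 0.761, 0.880 and 0.792 CPM. All 5 pMCAO values lay above all 7 sham values, which was so for 50 of the 15855 genes of the table (0.315%). The 0 counts of sham replicate 6 allow up to 0.0768 CPM, the level of 3 counts in that library.

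The counts of Kmo were too low for the filter, so it had no place in the fit over 14462 genes. In a limma-voom fit without the filter the difference between the groups was 2.52 on the log2 scale (SE 0.83, unadjusted p = 0.00751, adjusted p = 0.441). Of the 15855 genes in that fit, 1281 (8.08%) had an unadjusted p under 0.05 and 0 were called. The value was 2.37 (SE 0.86, adjusted p = 0.275) with runs of library numbers. Without the early libraries it was 3.31 (SE 1.20), in a fit that applied the filter. Kmo passed that filter through its pMCAO counts, so no p is read from that fit. Fitted folds at so few counts depend on the prior count added to them. The means of log2 CPM differed by 1.56 in an exact two-sided permutation test over the 792 splits of 12 samples (p = 0.00253, not adjusted for other genes, where the smallest p possible was 0.00126). The groups had already been seen to lie apart, and the splits ignore the early libraries, so nothing is read from that p. In sham replicates 2 and 3, 3 counts correspond to 0.622 and 0.724 CPM, close to the 0.684 CPM of pMCAO replicate 1, so these shallow libraries separate the groups weakly. Kmo is known from macrophages and microglia, and the summed markers of macrophages and dendritic cells ranged from 29.9 to 161.2 CPM in sham and from 23.6 to 199.1 CPM in pMCAO. Their part in the Kmo difference was not tested.

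Ccbl1, the cytosolic kynurenine aminotransferase also called glutamine transaminase K, was lower in every pMCAO library than in any sham library. It lies on the minus strand of chromosome 2 (chr2:30185124-30205847), with no other annotated gene over its exons. The difference put Ccbl1 in the list, so its values are a description and carry no test. Sham replicates 1 to 7 had 72.1, 133.3, 133.0, 45.0, 67.5, 72.3 and 36.9 CPM, with a mean of 80.0 ± 38.8 (SD, n = 7). The pMCAO replicates 1 to 5 had 22.2, 13.7, 19.4, 10.2 and 25.6 CPM, with a mean of 18.2 ± 6.23 (SD, n = 5). The highest pMCAO value, 25.6 CPM in replicate 5, lay below the lowest sham value, 36.9 CPM in replicate 7. Such a gap, with pMCAO below sham, was present for 28 of 14462 genes (0.194%).

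The log2 fold change of Ccbl1 was -1.98 (SE 0.32) over all libraries, -1.96 (SE 0.25) with runs of library numbers and -1.68 (SE 0.29) with library totals as the only scaling. Within the 3 runs that hold both groups it was -2.28, -1.75 and -2.15. Without the early libraries it was -1.68 (SE 0.29), and the 4 remaining sham libraries still lay above the 4 remaining pMCAO libraries, which was so for 1.64% of all genes. The early sham libraries had 72.1 to 133.3 CPM and the later ones 36.9 to 72.3 CPM. With group in the model, Ccbl1 was higher in the early libraries by 0.78 on the log2 scale (SE 0.27, adjusted p = 0.0481), in the direction opposite to Ido1. That call was lost without sham replicate 2, 3, 4 or 7 or pMCAO replicate 1, 2 or 4 (adjusted p from 0.0647 to 0.168), and in a fit without the filter (adjusted p = 0.0559). With library totals alone the difference was -0.0050, a scaling that moves the median of all genes in this contrast from -0.15 to -0.95. The summed epithelial markers were also higher in the early libraries (5633 to 6999 against 3386 to 5292 CPM), where all 6 were called, with a median log2 difference of 0.65. Within the surgery groups this marker list had r = 0.05 with Ccbl1. The r was 0.28 for enterocyte, 0.34 for B and plasma cell and 0.34 for erythroid markers. It was -0.82 for proliferating, -0.77 for Paneth, -0.75 for stem and crypt and -0.70 for goblet markers. Markers of T cells had -0.66, enteroendocrine cells -0.60, tuft cells -0.56, stroma, muscle and endothelium -0.34, and macrophages and dendritic cells -0.22. Mitochondrial ribosomal RNA was at 34.8% to 54.5% in the early and 14.6% to 35.2% in the later libraries. The part of these cell types and of mitochondrial ribosomal RNA in the Ccbl1 difference was not tested.

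Ccbl2, the paralogue that can carry out the same reactions, had the lowest mean per length of the 3 aminotransferases in the table. It lies on the plus strand of chromosome 3 (chr3:142701051-142746870). Sham replicates 1 to 7 had 9, 3, 0, 6, 5, 35 and 21 counts, or 0.717, 0.622, 0, 0.741, 0.289, 0.897 and 1.53 CPM. The 0 counts of replicate 3 allow up to 0.724 CPM. The pMCAO replicates 1 to 5 had 71, 28, 114, 19 and 44 counts, or 6.07, 0.655, 2.63, 1.52 and 1.66 CPM. The groups overlapped: pMCAO replicate 2 lay below 4 sham libraries, and replicate 1 stood above all others. The log2 fold change was 1.30 (SE 0.72), 1.88 (SE 0.77) with runs and 0.88 without the early libraries. These values are a description, since Ccbl2 entered the fits through its pMCAO counts. Within the runs it was 3.98, 1.32 and 0.76, so the run of pMCAO replicate 1 gave the largest value. An antisense gene, Gm15540, covers 264 bases of its exons.

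The promoter windows of Ccbl1 and Ccbl2 are shown because this pair of paralogues can carry out the same reactions. Both are the 250 bases before the start site on the gene's own strand, from RefSeq (GRCm38.p6), at chr2:30205848-30206097 for Ccbl1 and chr3:142700798-142701047 for Ccbl2. The capitals mark the core of the aryl hydrocarbon response element, GCGTG or its reverse complement CACGC, because kynurenic acid and kynurenine are ligands of that receptor.
Ccbl1: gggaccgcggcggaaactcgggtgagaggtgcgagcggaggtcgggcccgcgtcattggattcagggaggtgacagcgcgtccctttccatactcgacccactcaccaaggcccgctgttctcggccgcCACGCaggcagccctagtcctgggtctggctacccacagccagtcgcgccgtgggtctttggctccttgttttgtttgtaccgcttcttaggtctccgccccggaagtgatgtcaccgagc
Ccbl2: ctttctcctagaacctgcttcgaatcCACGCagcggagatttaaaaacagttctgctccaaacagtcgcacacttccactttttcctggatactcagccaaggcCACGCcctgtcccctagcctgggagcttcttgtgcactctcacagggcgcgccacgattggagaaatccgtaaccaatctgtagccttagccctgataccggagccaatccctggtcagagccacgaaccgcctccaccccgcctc
Ccbl1 held 1 match, with its first base at -121 counted from the start site, and Ccbl2 held 2, at -224 and -146. Of 32851 promoters of the same length, 28.2% held at least 1 match. The Ccbl1 window held 23 CpG and 64.4% GC and the Ccbl2 window 13 CpG and 56.0% GC, against medians of 6.0 CpG and 52.4% GC. A match describes the letters only and shows no binding. The promoter table matched 6 of the 7 genes and had no entry for Ido1.

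Got2, the mitochondrial aspartate aminotransferase, which also accepts kynurenine, was higher in the later libraries than in the early ones. It lies on the minus strand of chromosome 8 (chr8:95864134-95888547). Sham replicates 1 to 7 had 3.82, 4.35, 1.93, 9.76, 6.94, 10.7 and 4.52 CPM. The pMCAO replicates 1 to 5 had 3.16, 13.2, 11.2, 13.1 and 16.0 CPM. Over all libraries the groups overlapped through pMCAO replicate 1, an early library, and in the later libraries all 4 pMCAO values lay above all 4 sham values, which was so for 271 of 14462 genes (1.87%).

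The log2 fold change of Got2 was 0.76 (SE 0.42, adjusted p = 0.628, 95% interval -0.12 to 1.65), 0.50 (SE 0.24, adjusted p = 0.402) with runs and 0.72 (adjusted p = 0.645) without the early libraries. Within the runs it was -0.01, 0.56 and 0.43. Between early and later libraries the log2 difference was -1.56 (SE 0.46, adjusted p = 0.0253). All 4 early libraries lay below all 8 later ones, which was so for 9.4% of all genes. The gap was small, with 4.35 CPM (21 counts) in sham replicate 2 and 4.52 CPM (62 counts) in sham replicate 7. The call between early and later libraries was lost without sham replicate 1 (adjusted p = 0.0524), sham replicate 3 (0.0510) or pMCAO replicate 1 (0.215). The goblet, enteroendocrine and tuft cell markers moved the same way, as did the medians of stem and crypt, Paneth and proliferating markers. The medians of the epithelial and enterocyte markers went the other way. The part of these cell types in the Got2 difference was not tested. Got2 shares 25.6% of its 50-base words with other genes, Got2-ps1 and Gm10874 among them, and Gm45760 covers 434 bases of its exons on the opposite strand, so its counts are uncertain.

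**Figure D2:**
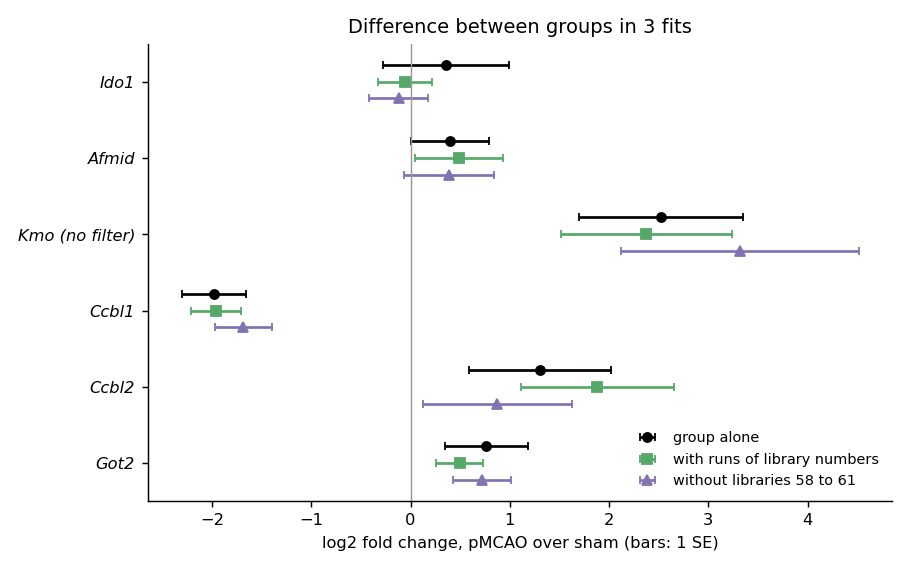
Log2 fold change of pMCAO over sham for the 6 genes (points, bars 1 SE) with group alone, with runs of library numbers and without libraries 58 to 61; Kmo comes from fits without the filter in the first 2 settings. Ccbl1 is at -1.98, -1.96 and -1.68, whereas Ido1 crosses 0 and turns from 0.36 to -0.06 and -0.12.

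Of the 5 genes tested, 3 (Ido1, Got2 and Ccbl1) were called between early and later libraries, against 19.1% of all genes. Ido1 and Got2 were lower in the early libraries, as were 9.2% of all genes, and Ccbl1 was higher, as were 9.86%. The count was 1 in the sham libraries alone, and 1 without sham replicate 3 or without pMCAO replicate 1. Ido1 was called in each of these settings.

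Levels per kilobase of exon allow a rough comparison of different genes. The length is the union of all annotated exons (9518 bases for Ccbl2 and 2923 for Ccbl1), whichever transcripts were expressed. The counts of Got2 and Afmid are uncertain, as given above. By mean, the order in sham was Ido1 (70.6 CPM per kilobase), Ccbl1 (27.4), Got2 (1.24), Afmid (0.759), Ccbl2 (0.0720) and Kmo (0.0543). In pMCAO it was Ido1 (90.1), Ccbl1 (6.24), Got2 (2.35), Afmid (0.964), Ccbl2 (0.263) and Kmo (0.177). The ranges of neighbours overlapped for Got2 and Afmid and for Ccbl2 and Kmo in both groups, for Ido1 and Ccbl1 in sham, and for Afmid and Ccbl2 in pMCAO. Ido1 and Ccbl1 changed places with the library runs: in the early sham libraries Ccbl1 was at 24.7 to 45.6 and Ido1 at 16.6 to 24.1 CPM per kilobase, and in the later ones Ccbl1 was at 12.6 to 24.7 and Ido1 at 82.5 to 130.8.

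The 3 aminotransferases in the table were also compared as shares of their summed level per kilobase. These shares contain Ccbl1, rest on the same exon lengths and on the uncertain counts of Got2, and are given as a description. In sham, Ccbl1 made up 94.2 ± 3.98% (SD, n = 7), Got2 5.48 ± 3.78% and Ccbl2 0.361 ± 0.389%. In pMCAO, Ccbl1 made up 69.2 ± 11.5% (SD, n = 5), Got2 27.8 ± 13.4% and Ccbl2 3.00 ± 2.47%. The lowest share of Ccbl1 in sham was 88.0% in replicate 4, and its highest share in pMCAO was 85.5% in replicate 1. Ccbl1 remained the most abundant of the 3 in each of the 12 libraries, and its lowest share was 54.9% in pMCAO replicate 4, where Got2 reached 42.6%. The shares also differed with the library numbers. In sham, Got2 took 0.872% to 3.10% in the early and 5.85% to 11.6% in the later libraries. In pMCAO it took 7.37% in the early library and 25.1% to 42.6% in the later ones. In the later libraries alone, Ccbl1 took 88.0% to 94.0% in sham and 54.9% to 71.9% in pMCAO.

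Between the paralogues alone, Ccbl1 took 96.0% to 100% of the counts of the pair in sham and 78.5% to 95.4% in pMCAO. The lowest sham value was 506 of 527 counts in replicate 7 (96.0%, 95% Wilson interval 94.0% to 97.4%). The lowest pMCAO value was 260 of 331 counts in replicate 1 (78.5%, interval 73.8% to 82.6%), and the highest was 587 of 615 counts in replicate 2 (95.4%, interval 93.5% to 96.8%). The intervals of sham replicate 7 and pMCAO replicate 2 overlap. They cover counting error only, since reads amplified by PCR are not independent molecules.

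**Figure D3:**
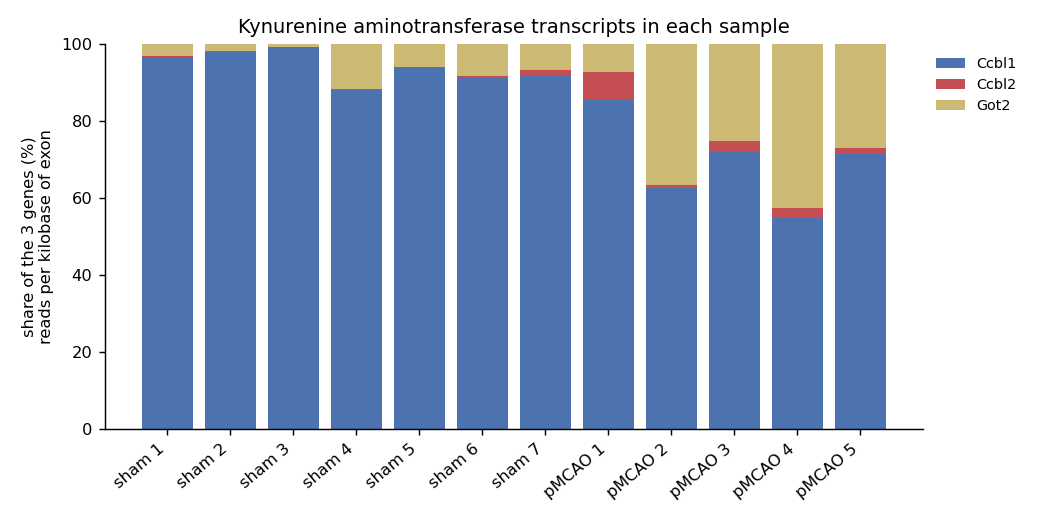
Share of Ccbl1, Ccbl2 and Got2 in their summed reads per kilobase of exon (percent, stacked bars from 0 to 100) in each sample. Ccbl1 takes 88.0% or more in the 7 sham samples and 54.9% to 85.5% in the 5 pMCAO samples, and Got2 takes most of the rest. Sham 1, 2 and 3 and pMCAO 1 are the early libraries.

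Across the 8 later libraries, with each group's mean removed, Ido1 and Afmid had the highest correlation of any 2 members (Pearson r = 0.70 on log2 CPM), and Ccbl1 and Kmo the lowest (r = -0.60). Ccbl1 correlated with Got2 at 0.46, with Ccbl2 at -0.09, with Afmid at -0.16 and with Ido1 at -0.48. These values describe 8 libraries that differ in depth. Kmo had 0 counts in sham replicate 6, the later sham library with the most Ccbl1 (72.3 CPM), so its r with Ccbl1 leans on that value. Over all 12 libraries, which include the early ones, Ccbl1 correlated with Got2 at -0.44, the opposite sign, with Ccbl2 at -0.31, with Afmid at -0.33, with Kmo at -0.11 and with Ido1 at -0.70, and Got2 and Ido1 at 0.78. Over the genes compared, the median r with Ccbl1 was 0.20, with a low percentile at -0.67 and a high one at 0.72. Of these members, only Ido1 lay outside those limits. Over these 12 libraries and 6149 genes with a mean of at least 10 CPM, the genes most like Ccbl1 after removal of the group means were Abl1, Kansl1, Gab2, Poldip3 and Tango6 (r = 0.88, 0.88, 0.88, 0.88 and 0.87). In the later libraries the same genes had r of 0.76, 0.73, 0.85, 0.70 and 0.85. The log2 fold changes of pMCAO over sham were 0.17 for Abl1, -0.00012 for Kansl1, 0.29 for Gab2, -0.0066 for Poldip3 and -1.18 for Tango6 (SE 0.62, adjusted p = 0.618).

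The genes around the pathway were read in 8 lists, with 0 genes called between pMCAO and sham in any of them, as in the whole table. The median log2 fold change of all 14462 genes was 0.06, and 55.2% of them had a value above 0. Of the other enzymes of the pathway, Kynu, Haao, Acmsd and Qprt had no row. Tdo2 and Ido2 had a row but did not pass the filter, with means of 0.812 and 0.696 CPM in sham and of 0.437 and 0.359 CPM in pMCAO.

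Among genes of NAD synthesis, 7 of 8 tested had a positive log2 fold change (median 0.43). This list includes salvage enzymes that do not lie on the branch of Kmo. Nampt, which salvages nicotinamide, was at 23.2 ± 5.15 CPM in sham and 32.5 ± 5.72 CPM in pMCAO (log2 fold change 0.56, SE 0.19, adjusted p = 0.438). Naprt, which salvages nicotinic acid, was at 70.0 and 97.5 CPM (0.50, adjusted p = 0.602). Nmnat2 and Nnmt had no row.

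Of the genes that lead from tryptophan to serotonin, 6 of 7 had a positive value (median 0.20, and -0.01 with runs). Ddc, the aromatic amino acid decarboxylase, was at 0.49 (SE 0.29, adjusted p = 0.648) and Slc6a4, the serotonin transporter, at 0.53 (SE 0.36, adjusted p = 0.686), and with runs they were at 0.27 and 0.29. Aanat and Asmt had no row. Between early and later libraries, 4 of the 7 were called, all lower in the early ones, against 9.2% of all genes. They were Tph1 (-2.47), Slc18a1 (-2.42), Maob (-1.96) and Ddc (-0.96), named here after their values were seen. Tph1 and Slc18a1 are known from enterochromaffin cells, and the enteroendocrine marker list, which holds Tph1, moved with them.

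Among carriers of tryptophan and kynurenine, 7 of 8 reported here had a positive value (median 0.24, and 0.16 with runs). Slc16a10, a transporter of aromatic amino acids, was at 75.1 ± 22.4 CPM in sham and 146.8 ± 62.5 CPM in pMCAO (0.91, SE 0.27, adjusted p = 0.348), and at 0.62 with runs. Slc36a4, a proton-independent amino acid carrier that accepts tryptophan, was at 7.60 and 3.17 CPM (-1.21, SE 0.51, adjusted p = 0.550). For both, the groups overlapped.

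Of the kynurenic acid receptor Gpr35 and Ahr with its partners and targets, 2 of 6 tested genes had a positive value and 4 a negative one (median -0.05). Nqo1, a quinone reductase, was at 2.03 and 4.52 CPM (1.03, SE 0.38, adjusted p = 0.504). Tiparp, an Ahr target, was at 66.3 and 43.7 CPM (-0.63, SE 0.26, adjusted p = 0.547). Cyp1a1, Cyp1a2 and Cyp1b1 had no row, so the best known targets of Ahr could not be read.

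The partners of Ccbl1 in glutamine and cysteine conjugate metabolism had 9 positive values of 11 (median 0.29). Glud1, glutamate dehydrogenase, was at 108.7 ± 44.9 CPM in sham and 255.7 ± 107.3 CPM in pMCAO (1.25, SE 0.34, adjusted p = 0.318), and 0.91 with runs (adjusted p = 0.0604). Anpep, a brush border aminopeptidase, was at 0.82 (SE 0.35, adjusted p = 0.567) and at 0.28 with runs. Cbs had no row.

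Of the other aminotransferases, 5 of 8 had a positive value (median 0.19). Got1, the cytosolic partner of Got2, was at 43.4 and 71.5 CPM (0.74, SE 0.26, adjusted p = 0.481), and Gpt2 was at 1.26 (SE 0.73, adjusted p = 0.645), and at 0.52 with runs. Bcat1 and Agxt had no row. In the supply of pyridoxal phosphate, the cofactor of these enzymes, Pdxk was at 0.58 (SE 0.35, adjusted p = 0.649) and Phospho2 at 0.15 (SE 0.36, adjusted p = 0.930). Pdxp had no row. Over these lists, 8 of 50 tested genes (16%) had an unadjusted p under 0.05, against 8.43% of all genes, and none of the 8 passed after adjustment. Nampt, Slc16a10, Nqo1, Glud1, Anpep and Got1 had positive values, and Tiparp and Slc36a4 negative ones.

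**Figure D4:**
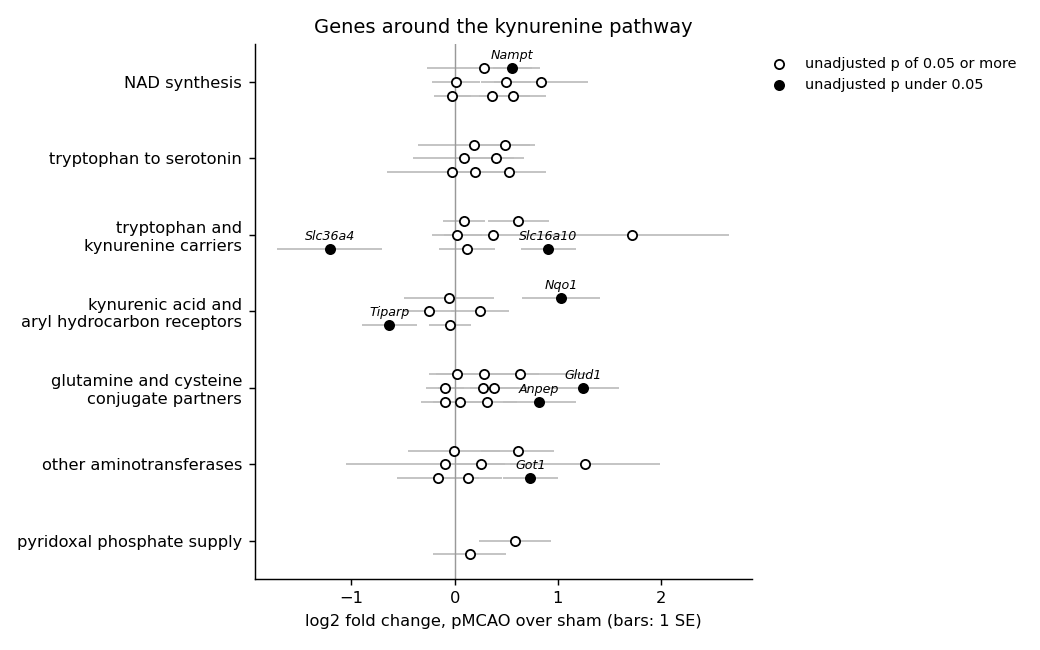
Log2 fold change of pMCAO over sham (points, bars 1 SE) for the tested genes of 7 lists around the pathway, with filled points at an unadjusted p under 0.05. Filled points lie at 1.25 for Glud1, 1.03 for Nqo1, 0.91 for Slc16a10, -0.63 for Tiparp and -1.21 for Slc36a4, and no gene passed after adjustment over 14462 genes.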

How the data were processed

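RNA of EpCAM+ cells (2.0 ng per library, ribosomal RNA removed, paired-end reads of 100 bases) was aligned by the authors to GRCm38 with STAR and assigned to genes with featureCounts, per the labels and the methods; annotation release and strand setting are not given in the sources used here. The deposited counts per gene were used as they stand. The authors also deposited CPM columns (not used here) and columns of their own comparison (log2 fold change, average log2 expression, p-value and FDR), which were not used or printed. Columns without a matched sample numbered 0.

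Counts were filtered with filterByExpr (1393 of 15855 genes removed), scaled by TMM and fitted on group alone with limma-voom in R 4.3.3 (edgeR version 4.0.16 and limma version 3.58.1), with Benjamini-Hochberg adjustment over all genes tested and calls at an adjusted p of at most 0.05. CPM in the text are deposited counts divided by the TMM-scaled library total, and log2 CPM use a prior count of 2. Levels per kilobase use the union of exons in GENCODE (GRCm38). A level of 3 counts, the limit that a count of 0 allows, was 0.0692 to 0.724 CPM, which covers counting error only. Other settings tried were DESeq2 1.42.0, the quasi-likelihood test of edgeR, other scalings, no filter, runs of library numbers, a replicate block and leaving out libraries. The fits were tested on simulated data.

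The methods state a correction for the day of collection, but the labels give no day. The runs (58 to 61, 62 to 65, 66 to 68, and 72) came from an earlier analysis of these data; whether a run is a day is not known, and this was not checked here. The members and lists were chosen with earlier results of these data known. All members were named, with the genes of each list that have the 2 smallest unadjusted p-values or no row, and the 5 genes most like Ccbl1. Some genes of the lists are not reported here, and the counts over the lists leave them out. A further pMCAO sample counted by the study was not analysed here.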

Additional observations from a re-analysis of the deposited data

Results flagged for a closer look

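One value stood far from the rest of its group. Got2 was at 1.71 log2 CPM in pMCAO replicate 1 (37 counts), and the other 4 pMCAO samples were at 3.74 ± 0.21 (SD, n = 4). Of 12 groups of values examined (6 genes in 2 groups), this was the only 1 past Dixon's 95% limit, and chance alone marks about 1 group in 20. This sample is the pMCAO library among the early libraries, whose 3 sham libraries had 1.93 to 4.35 CPM of Got2. Its part in the low value was not tested.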

How the results depend on the processing

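Between pMCAO and sham, Ccbl1 is left out of the number of members called, since this difference put it in the list. That number was 0 under every alternative run. The number of genes called over the whole table went from 0 to 71 with DESeq2, 69 with runs of library numbers and 367 with the replicate block. Ido1 turned from a log2 fold change of 0.36 to -0.056 with runs and to -0.12 without libraries 58 to 61. Ccbl1 stayed below 0 and Ccbl2, Got2 and Afmid above 0 under the alternatives run. With library totals as the only scaling, the median of all genes moved from 0.06 to 0.35, Ccbl1 to -1.68 and Got2 to 1.12. Correlations of deviations for replicates 1 to 5 were 0.40, -0.24, -0.16, 0.16 and 0.08. Replicate 1 was an early library in both groups, whereas replicates 2 and 3 were early in sham and later in pMCAO. These correlations therefore cannot show whether the replicate numbers pair the samples. The replicate block gave 0 members called, with Ccbl2 at 2.25 and Got2 at 1.02 (adjusted p = 0.208).

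Between early and later libraries, where Ccbl1 is counted, 3 members were called, 1 in the sham samples alone, and 1 to 3 when a library was left out. Under library totals alone Ccbl1 turned to -0.0050 and Ccbl2 to -0.019. With 1 library left out, Afmid ranged from -0.22 to 0.11 (above 0 without sham replicate 3, and at 0.0034 without pMCAO replicate 2), and Ccbl2 from -0.74 (without pMCAO replicate 1) to 1.25. The cause was not tested. Depth limits Kmo and Ccbl2 most, with 0 to 4 and 0 to 35 counts in sham.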
